A study of Ambystoma mexicanum with 60 samples.

Results

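The RNAs described here are those of 7 genes picked as enriched on the animal side of the axolotl embryo: *huwe1*, *gldc*, *aass*, *sri*, *vps13c*, *shank2* and *rapgef2* (human symbols HUWE1, GLDC, AASS, SRI, VPS13C, SHANK2 and RAPGEF2). Every transcript that the deposited ortholog table pairs with 1 of these human symbols was taken, which gave 23 of the 28909 transcripts counted (7 of 9194 symbols). *Aass*, *gldc* and *vps13c* had 1 transcript each, *sri* had 2, *shank2* 4, *huwe1* 6 and *rapgef2* 8, and 22 of the 23 had a mean total above 20 counts in at least 1 stage. The exception was the rarest *rapgef2* transcript, which was above 0 in 1 library. The genes were chosen with levels of these same sections in view. Their animal gradients within a stage are therefore a description, and a call of a member within a stage, though made by the test used for all transcripts, is no independent evidence of its gradient. Which stage led to each choice is not recorded, so tests of how the gradient differed between stages are not fully independent of the choice either.

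TOMO-seq, RNA sequencing of consecutive slices of an embryo, was applied to 12 embryos of *Ambystoma mexicanum*, 3 at each of the 1-cell (fertilized egg), 4-cell, 64-cell and 1K-cell stages. Each embryo was cut along the animal-vegetal axis into 5 sections, A at the animal pole, then B, C and D, and E at the vegetal pole. The labels give no treatment, strain or parents; the study describes 2 experiments with different parents without assigning embryos to them. Of 60 libraries 59 were used, because the submitters label section D of 1-cell replicate 3 an outlier, so that section has n = 2 at that stage and the total of that embryo lacks it.

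In amphibian eggs the animal hemisphere holds the nucleus and later gives rise mainly to ectoderm, while the vegetal hemisphere is packed with yolk. The RNA of the early cleavage stages is almost wholly maternal, laid down in the oocyte, and the embryo's own genome is switched on broadly only around the mid-blastula transition. The 7 genes do not form a pathway. *Gldc* and *aass* encode mitochondrial enzymes of amino acid breakdown, *huwe1* a ubiquitin ligase, *vps13c* a lipid transfer protein, *sri* a calcium-binding protein, *rapgef2* an activator of RAP GTPases and *shank2* a scaffold protein best known from synapses.

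Libraries held 1546418 to 6001350 counts, with medians of 3283506 (1-cell), 3534540 (4-cell), 4085805 (64-cell) and 4534277 (1K-cell). Each library was made from the same mass of total RNA, so a level is relative to the other RNA of its section, and more of an RNA cannot be told apart from less of the rest. The section labels were checked on 6 RNAs of the vegetal pole (*grip2*, *dnd1*, *nanos1*, *rbpms2*, *tfap2c* and *wnt5a*): all 6 were called vegetal at the 1-, 4- and 64-cell stages and 5 at the 1K-cell stage, and section E held 63.2 to 98.2% of their summed section levels at the 1-cell stage. The study had already described *grip2*, *dnd1*, *nanos1* and *rbpms2* as vegetal in these embryos, so the check is not independent of the data. No marker of the animal pole was checked. Of 12 blood and skin markers only *ptprc*, a leukocyte phosphatase, was among the counted transcripts. Its level was at most 4.56 in the libraries of the later stages, against 34.5 to 79.1 in the 1-cell libraries, and its part in the stage differences below was not tested.

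All levels are normalised counts, that is, deposited counts divided by the median-of-ratios factor of the library. An embryo total adds the deposited counts of its section libraries and is divided by such a factor of the embryo. Deeper libraries weigh more in it, and it is a relative level, not an amount of RNA per embryo. The animal excess is the mean log2 level of sections A and B minus that of D and E, given with its standard error (SE), so a positive value means higher on the animal side. A transcript was called an animal DLT (differentially localized transcript) of a stage when its 5 sections differed at an adjusted p under 0.01 in edgeR's quasi-likelihood test, its mean total was above 20 in some stage and its animal excess was positive. The p-value is thus that of a test over all 5 sections. Within a stage the animal excess gave the direction and size and had no test of its own. Of the 23 transcripts 6 were called at the 1-cell stage, where 1.34% of all transcripts were. At the 4-cell stage it was 2 (0.169% of all transcripts), at the 64-cell stage 2 (0.405%) and at the 1K-cell stage 1 (0.342%). None was called vegetal, against 5.59, 2.08, 3.3 and 3.2% of all transcripts at the 4 stages. These counts rest on all 3 embryos: with 1 embryo left out, 0 or 1 member was called at the 1- and 64-cell stages and 0 at the 4- and 1K-cell stages. Over all transcripts such fits called 481 to 638 at the 1-cell stage in either direction, where the full data gave 2003. Each of the 7 symbols had exactly 1 transcript called in at least 1 stage, and the other 16 transcripts were called in no stage. The symbols were picked as animal from these same sections, so a call for each may follow from the choice. The share of all symbols with such a call was not counted. The median animal excess of the 22 transcripts above the total limit was 0.36, 0.55, 0.11 and 0.39 at the 4 stages. Over all transcripts above that limit the median was 0.04, 0.00, 0.03 and 0.02. The excess was positive in 14, 14, 12 and 16 of the 22, against 52.7, 50.3, 52.8 and 52.7% of all transcripts above the limit. At the 64-cell stage the members were thus near the share of all transcripts.

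**Figure D1:**
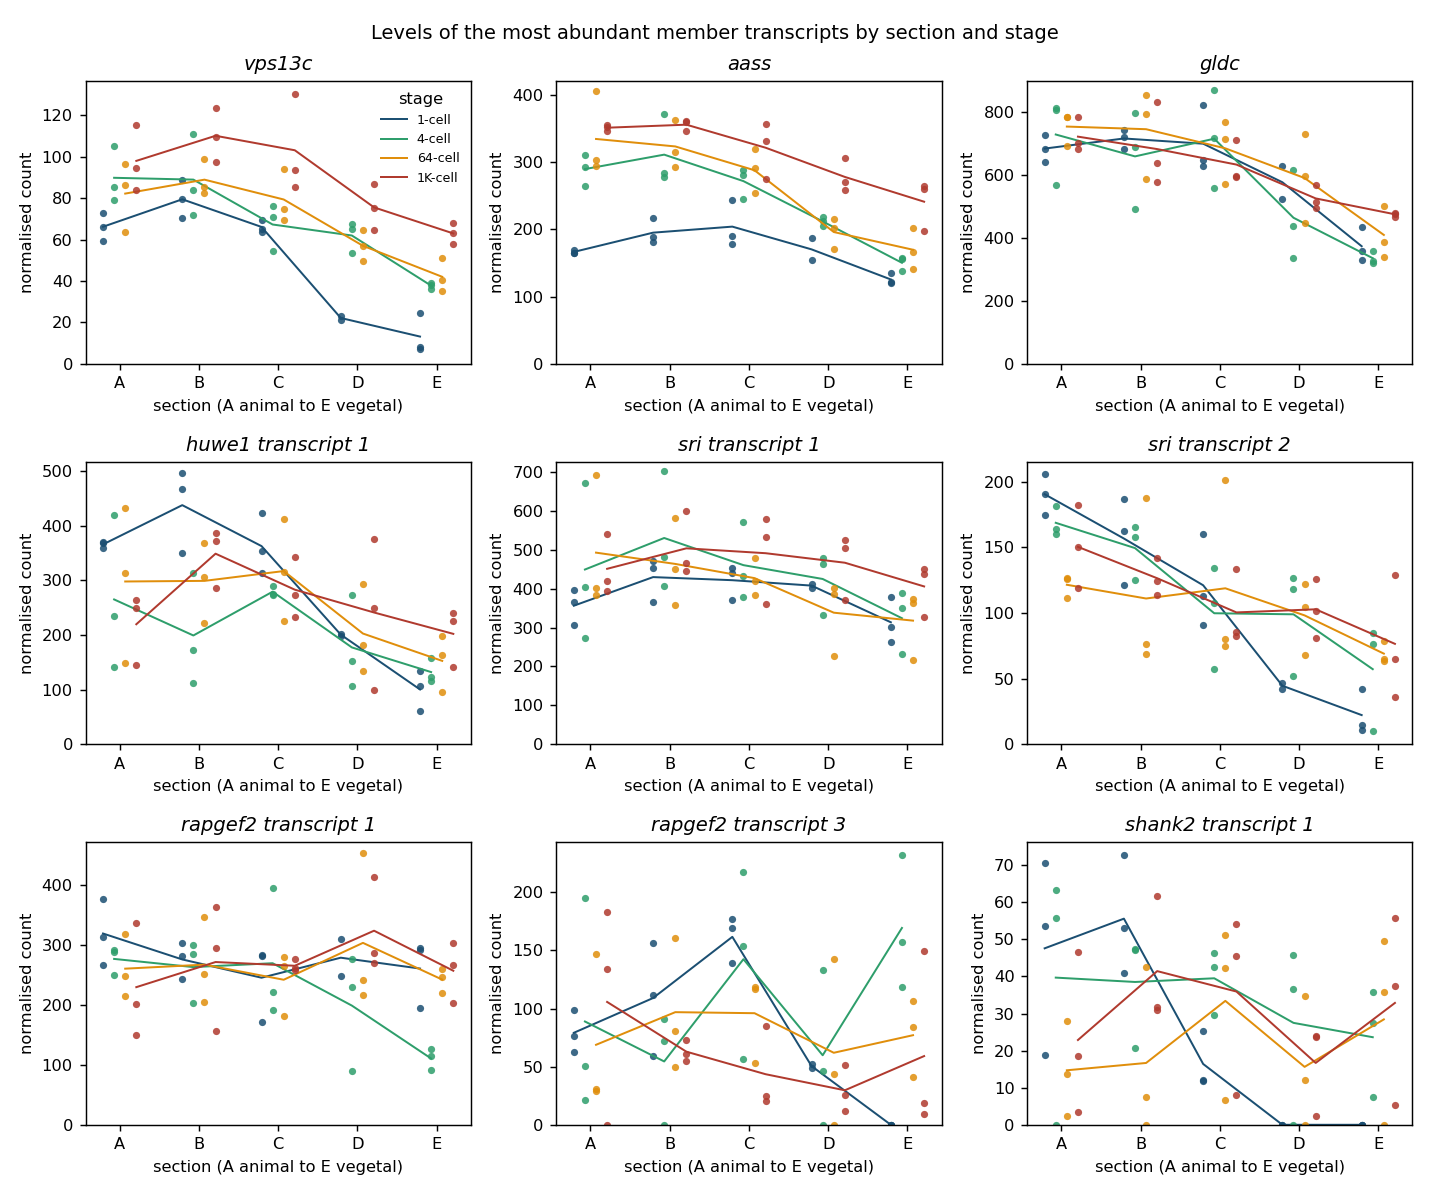
Normalised counts of 9 member transcripts (y axis, from 0) in sections A to E (x axis) at the 4 stages (colours); points are single embryos and lines join section means. *Vps13c* at the 1-cell stage drops to 7.17 to 24.4 in section E, the section means of *aass* at the 1-cell stage lie below those of the later stages, and *rapgef2* transcript 3 and *shank2* transcript 1 are at 0 in section E at the 1-cell stage and scatter widely later.

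*Vps13c* encodes a very large protein that forms a channel for lipids where the endoplasmic reticulum touches late endosomes and lipid droplets. Its single transcript had the gradient that flattened most clearly. At the 1-cell stage its level was 59.4, 72.9 and 66.2 in section A of the 3 embryos and 70.2, 79.5 and 88.6 in section B, against 23.0 and 21.2 in section D and 7.91, 7.17 and 24.4 in section E. Sections A and B lay above D and E without overlap. Section C (63.6 to 69.4) was close to A, and in the 2 embryos with a section D library the level fell over 2 steps, by a mean difference in log2(level + 1) of 1.56 between C and D and 1.44 between D and E. At the 1K-cell stage section A stood at 94.6, 115 and 83.9, against 58.0, 67.9 and 63.0 in section E. Section A was still above E in all 3 embryos, but the ranges of A with B and of D with E now met (83.9 to 123, against 58.0 to 86.8). The animal excess was 2.03 ± 0.28, 0.86 ± 0.13, 0.79 ± 0.15 and 0.58 ± 0.12 at the 4 stages.

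The difference in animal excess of *vps13c* between the 1K-cell and the 1-cell stage was -1.47 ± 0.25 (log2), a flattening at edgeR's adjusted p = 0.000296. This main fit had no embryo term, and with that term the difference was -1.45 (adjusted p = 7.3e-05). *Vps13c* was the only member transcript called in the main fit. There 0.1% of all transcripts had a called negative difference and 0.536% a called positive one, whichever side their own gradient was on. Most of the difference already lay between the 4- and the 1-cell stage, at -1.17 ± 0.25. This step missed the threshold (adjusted p = 0.0116) and passed it once the embryo was a term of the fit, which pairs the sections of an embryo (-1.16, adjusted p = 0.00347). The later steps, 64-cell minus 4-cell at -0.08 ± 0.23 and 1K-cell minus 64-cell at -0.21 ± 0.23, were within their error. The flattening was not called without 1-cell replicate 2 (-1.24, adjusted p = 0.0163) or without 1K-cell replicate 3 (-1.32, adjusted p = 0.0134), and lay between -1.85 and -1.24 over the 12 fits that left out an embryo.

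Both ends of the axis were then followed on their own. The level of *vps13c* in section E was 4.85-fold higher in 1K-cell than in 1-cell embryos (2.28 ± 0.44 on the log2 scale, adjusted p = 0.00713 in edgeR). In section A the difference was 0.56 ± 0.22, which did not pass the test (adjusted p = 0.15). The section E call rests on few counts at the 1-cell stage and held in only 1 of the 12 fits that left out an embryo, with estimates of 1.97 to 3.09; without 1-cell replicate 3, whose section E had the highest level of its stage, it was 3.09. The embryo total was also higher, at 437, 528 and 454 in 1K-cell embryos against 274, 286 and 324 in 1-cell embryos (log2 0.68 ± 0.15, adjusted p = 0.00607). The totals of these stages did not overlap. This call was lost when section D was left out of every total (0.62, adjusted p = 0.0148) and in 7 of the 12 fits without an embryo.

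**Figure D2:**
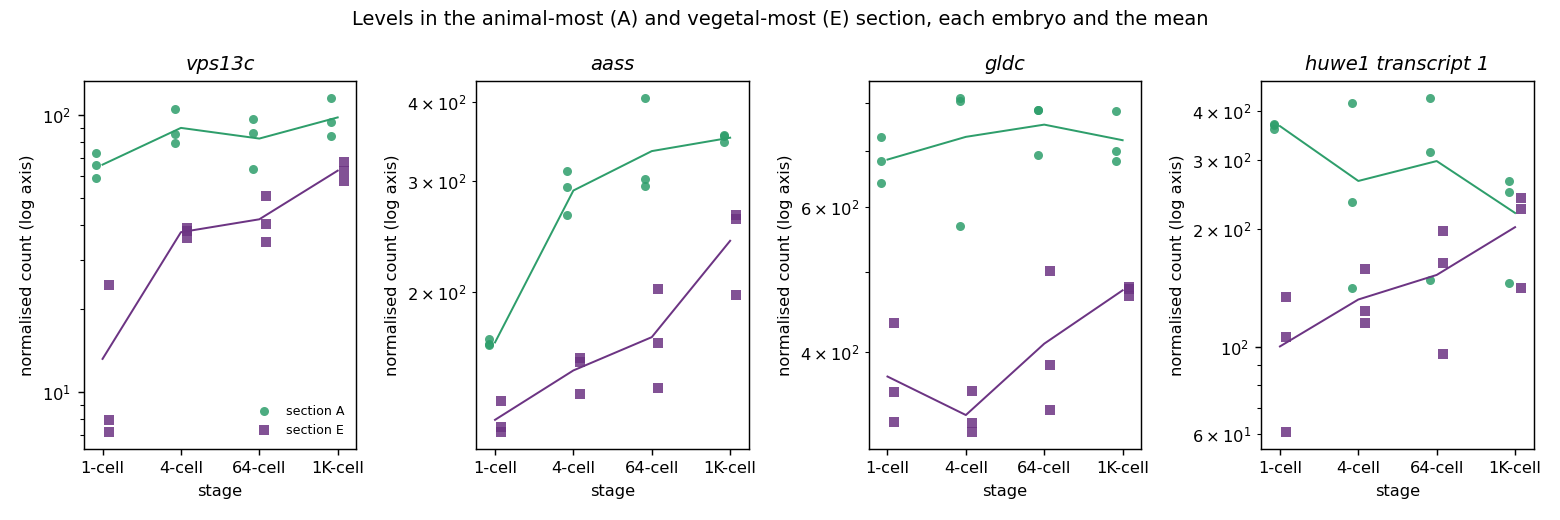
Normalised counts (log axis) in section A (green circles) and section E (purple squares) of each embryo at the 4 stages, with lines through the means, for *vps13c*, *aass*, *gldc* and *huwe1* transcript 1. For *vps13c* the points of section E lie at 58.0 to 67.9 at the 1K-cell stage, against 7.17 to 24.4 at the 1-cell stage. Those of section A shift less. For *aass* both ends are higher at the 1K-cell than at the 1-cell stage, with most of the shift in section A already present at the 4-cell stage.

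*Aass* encodes the mitochondrial enzyme that carries out the opening steps of lysine breakdown. Its RNA was the member whose embryo total differed most clearly between stages. Embryo totals were 903, 862 and 965 in 1-cell embryos, 1464, 1264 and 1275 in 4-cell embryos, 1332, 1418 and 1338 in 64-cell embryos and 1580, 1566 and 1713 in 1K-cell embryos. All 1-cell embryos lay below all later ones. Stage as a whole passed the test (adjusted p = 0.000254) for this transcript alone of the 23, where 15.7% of all transcripts passed, and between the 1K-cell and the 1-cell stage the total rose by 0.83 ± 0.10 (log2, 1.78-fold, adjusted p = 5e-05). With *vps13c* it was 1 of 2 member transcripts whose total was higher at the 1K-cell stage by this test, against 10.2% of all transcripts; none was lower, against 6.33%.

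Between the 1-cell and the 1K-cell stage the rise of *aass* was of like size at both ends of the axis. At the 4- and 64-cell stages the means were 289.9 and 334.7 in section A and 150.4 and 169.8 in section E. Most of the rise in section A thus came by the 4-cell stage and most of that in section E after the 64-cell stage. This timing was not tested. Section A held 346, 355 and 353 at the 1K-cell stage against 165, 169 and 166 at the 1-cell stage, a log2 difference of 1.06 ± 0.13 (adjusted p = 0.000711). Section E held 198, 261 and 265 at the 1K-cell stage against 134, 120 and 122 at the 1-cell stage (1.00 ± 0.18, adjusted p = 0.0044). At neither end did the stages overlap, and the call for section A held in all 12 fits that left out an embryo, that for section E in 7. *Aass* was the only member called in section A, where 2.74% of all transcripts were called higher and 1.36% lower. In section E *aass* and *vps13c* were called higher, against 2.62% of all transcripts, and no member lower, against 3.1%.

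The gradient of *aass* was shallow at the 1-cell stage, where its level peaked in section C (mean 204 ± 35.2, SD, n = 3). Its animal excess was 0.28 ± 0.10, 0.74 ± 0.09, 0.84 ± 0.10 and 0.45 ± 0.08 at the 4 stages. It was called an animal DLT at the 4- and 64-cell stages. Sections A and B lay above D and E without overlap at these stages (265 to 372 against 138 to 218, and 293 to 407 against 141 to 215) and also at the 1K-cell stage (346 to 361 against 198 to 306), where it was not called. The differences between stages were not called: 0.45 ± 0.15 between the 4- and 1-cell stages (adjusted p = 0.23) and -0.40 ± 0.14 between the 1K- and 64-cell stages (adjusted p = 1). Thus the order of the stages in steepness is not established for this gene.

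*Gldc* encodes glycine decarboxylase, the subunit of the mitochondrial glycine cleavage system that binds and decarboxylates glycine. In edgeR's main fits it was the only member called an animal DLT at all 4 stages. DESeq2 also called *vps13c* and *aass* at all 4 stages, and edgeR without the embryo term called *gldc* at the 1-cell stage only. No difference between stages in the gradient or total of *gldc* was called. Nor was one in its level in section A or E between the 1K-cell and the 1-cell stage, the only pair tested for single sections. Section A had 682, 728 and 641 in 1-cell embryos, 812, 806 and 568 in 4-cell embryos, 784, 692 and 785 in 64-cell embryos and 784, 701 and 681 in 1K-cell embryos. In the same order section E had 330, 434 and 358, then 359, 320 and 328, then 502, 341 and 386, then 480, 478 and 468. Section A exceeded section E in each of the 12 embryos, and section E held a mean of 14.1 to 19.0% of the summed levels of sections A, B, C and E at the 4 stages.

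The animal excess of *gldc* was 0.61 ± 0.09, 0.79 ± 0.10, 0.62 ± 0.07 and 0.48 ± 0.06. Between the 1K-cell and the 1-cell stage it differed by -0.10 ± 0.20 (adjusted p = 0.98, 95% interval -0.49 to 0.29). Totals averaged 3315 ± 257, 3134 ± 692, 3329 ± 623 and 3176 ± 330 (SD, n = 3 each), and the 1K-cell total differed from the 1-cell total by -0.06 ± 0.17 (adjusted p = 0.84). *Gldc* and *aass* both have a mitochondrial role. Both had a positive animal excess at all stages, which may follow from their choice as animal genes. In edgeR's main fits *aass* was called animal at the 4- and 64-cell stages only. The difference between the stage courses of these 2 genes was not tested.

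**Figure D3:**
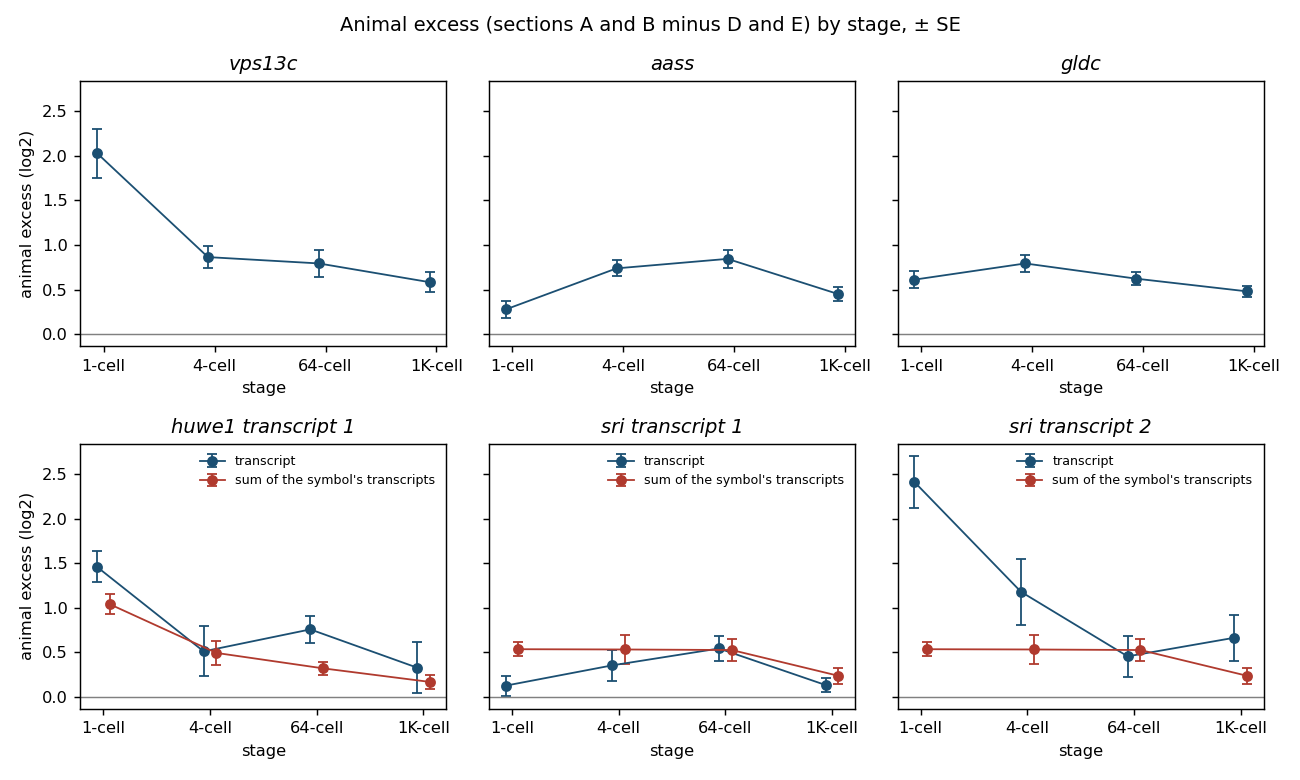
Animal excess (log2, sections A and B minus D and E, ± SE) at the 4 stages for 6 member transcripts (blue) and, for *huwe1* and *sri*, for the sum of all transcripts of the symbol (red); the grey line marks no difference. *Vps13c* drops between the 1- and 4-cell stages to below 0.9, *gldc* stays between 0.48 and 0.79, and *sri* transcript 2 drops while the sum of both *sri* transcripts stays between 0.24 and 0.53.

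*Huwe1* encodes a giant HECT-type ubiquitin ligase with many substrates, p53 and MCL1 among those known in mammals. Its most abundant transcript was 369, 358 and 369 in section A and 495, 350 and 466 in section B at the 1-cell stage, against 202 and 199 in section D and 60.7, 106 and 134 in section E. These values did not overlap. Its animal excess was 1.46 ± 0.17, 0.51 ± 0.28, 0.76 ± 0.16 and 0.33 ± 0.28 at the 4 stages and was called at the 1-cell stage. By the 1K-cell stage section A held 145, 265 and 248, against 142, 240 and 225 in section E. Section A exceeded E in all 12 embryos, yet the 1K-cell ranges of both sections nearly coincided.

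The 1K-cell excess of this *huwe1* transcript differed from the 1-cell excess by -1.16 ± 0.42, which did not pass the test (adjusted p = 0.184). In section E its 1K-cell level was 1.05 ± 0.34 above the 1-cell level (adjusted p = 0.0667), and its total averaged 1394 ± 161 at the 1K-cell and 1697 ± 181 at the 1-cell stage (-0.28 ± 0.25, adjusted p = 0.461). The 5 other *huwe1* transcripts were each at 0 in 16 to 42 of the 59 libraries and reached up to 226 to 339 elsewhere. The 6 were also summed, a calculation added after the data were seen, since counts of transcripts that share sequence are uncertain. The sum was 708, 653 and 708 in section A against 311, 217 and 316 in section E at the 1-cell stage, and 551, 500 and 438 in section A against 434, 381 and 448 in section E at the 1K-cell stage. Its animal excess was 1.04 ± 0.11, 0.49 ± 0.13, 0.32 ± 0.07 and 0.17 ± 0.08, lower at each later stage, and the 1K-cell excess differed from that of the 1-cell stage by -0.85 ± 0.28 (adjusted p = 0.134).

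*Sri* encodes sorcin, a penta-EF-hand protein that binds calcium and in heart muscle damps the ryanodine receptor. Its 2 transcripts, which the ortholog table lists as paralogs, behaved differently. The rarer one, transcript 2, had 206, 191 and 175 in section A at the 1-cell stage, against 10.5, 14.3 and 41.9 in section E. At the 1K-cell stage it had 182, 150 and 119 in section A against 64.7, 129 and 35.8 in section E. The animal excess was 2.41 ± 0.29, 1.18 ± 0.37, 0.45 ± 0.23 and 0.66 ± 0.26, with section A above E in each of the 12 embryos, and was called at the 1-cell stage. The difference between the 1K-cell and 1-cell stages, -1.80 ± 0.49, was larger than that of *vps13c* but less precise, and missed the threshold (edgeR adjusted p = 0.0448), while DESeq2 called it.

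The abundant *sri* transcript, transcript 1, made up 75.7 to 80.6% of the counts of the symbol at the 4 stages and had an excess of 0.12 ± 0.11, 0.35 ± 0.18, 0.54 ± 0.14 and 0.13 ± 0.08, called at no stage. Summed, *sri* had an excess of 0.53 ± 0.08, 0.53 ± 0.16, 0.52 ± 0.12 and 0.24 ± 0.09. The summed gradient was called at the 1-cell stage and differed between the 1K- and 1-cell stages by -0.31 ± 0.26 (adjusted p = 0.747). Neither transcript had a total that passed the test between these stages, transcript 1 averaging 2422 ± 414 at the 1K-cell and 2014 ± 103 at the 1-cell stage and transcript 2 averaging 582 ± 57.6 at the 1K-cell and 645 ± 82.3 at the 1-cell stage (SD, n = 3 each).

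*Shank2* encodes a scaffold protein of the postsynaptic density that also organises membrane proteins in epithelia. Its most abundant transcript had 70.5, 18.8 and 53.5 in section A and 72.6, 41.0 and 53.2 in section B at the 1-cell stage, and was at 0 in all 5 libraries of sections D and E. Setting 3 counts over those 5 libraries in place of 0, the level in A and B was 57.0-fold higher. This figure allows for counting noise only and is no firm lower bound, since the transcript was also at 0 in some animal libraries of later stages. In later stages this transcript was between 0 and 63.4 in sections A and B and between 0 and 55.8 in D and E, without a consistent direction: the animal excess was 0.40 ± 1.01, -0.24 ± 1.35 and 0.29 ± 0.77 at the 4-, 64- and 1K-cell stages.

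Other *shank2* transcripts were present where transcript 1 was at 0. At the 1-cell stage transcripts 3 and 4 had 65.9 and 0 in section E of replicate 1, 5.38 and 69.9 in replicate 2 and 24.4 and 40.1 in replicate 3. Summed over its 4 transcripts, *shank2* had 95.7, 97.9 and 104 in section A against 65.9, 75.3 and 64.6 in section E at the 1-cell stage. The excess of the sum was 0.45 ± 0.14, 0.02 ± 0.15, 0.16 ± 0.12 and 0.10 ± 0.14 and was called at no stage. The spread between embryos shrank with the summing: the median coefficient of variation over the 20 groups of stage and section was 17.3% for the sum and 72.3% for transcript 1 alone. The ortholog table lists these transcripts as paralogs, and how reads were shared out between them was not tested.

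*Rapgef2* encodes a guanine nucleotide exchange factor that loads RAP GTPases, which act in cell adhesion. Transcript 3 was the called one: at the 1-cell stage it had 98.7, 76.1 and 62.7 in section A, 156, 59.5 and 112 in section B and 177, 139 and 169 in section C, against 52.1 and 48.9 in section D and 0 in section E of all 3 embryos. With 3 counts over the section E libraries in place of 0, the level in A and B was 45.7-fold higher than in E. Again this allows for counting noise only and is no firm lower bound. In later stages this transcript, too, was at 0 in some libraries of sections A and B. At the 4-cell stage the same transcript was highest in section E (119, 232 and 158), above section A in all 3 embryos. Its animal excess there, -0.65 ± 0.75, was not called (adjusted p = 0.798), nor was the difference in excess between the 4- and the 1-cell stage (adjusted p = 0.221).

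The most abundant *rapgef2* transcript had an excess of 0.16 ± 0.16, 0.92 ± 0.24, -0.03 ± 0.16 and -0.26 ± 0.22, called at no stage. Summed over its 8 transcripts, *rapgef2* had 647, 548 and 520 in section A against 467, 441 and 489 in section E at the 1-cell stage, and 494, 483 and 445 in section A against 500, 452 and 505 in section E at the 1K-cell stage. The excess of the sum was 0.18 ± 0.08, 0.13 ± 0.13, 0.08 ± 0.07 and -0.05 ± 0.08, again called at no stage. For *rapgef2* and *shank2* the animal calls thus rest on single transcripts at the 1-cell stage. The sums of both were higher in section A than in section E in all 3 embryos of that stage, without overlap. They did not pass edgeR's test over all sections (adjusted p = 0.197 for *rapgef2* and 0.28 for *shank2*), and A against E was not tested alone. Summed by symbol, *vps13c*, *huwe1*, *gldc* and *sri* were called animal at the 1-cell stage, *gldc* and *aass* at the 4- and 64-cell stages and *gldc* at the 1K-cell stage.

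**Figure D4:**
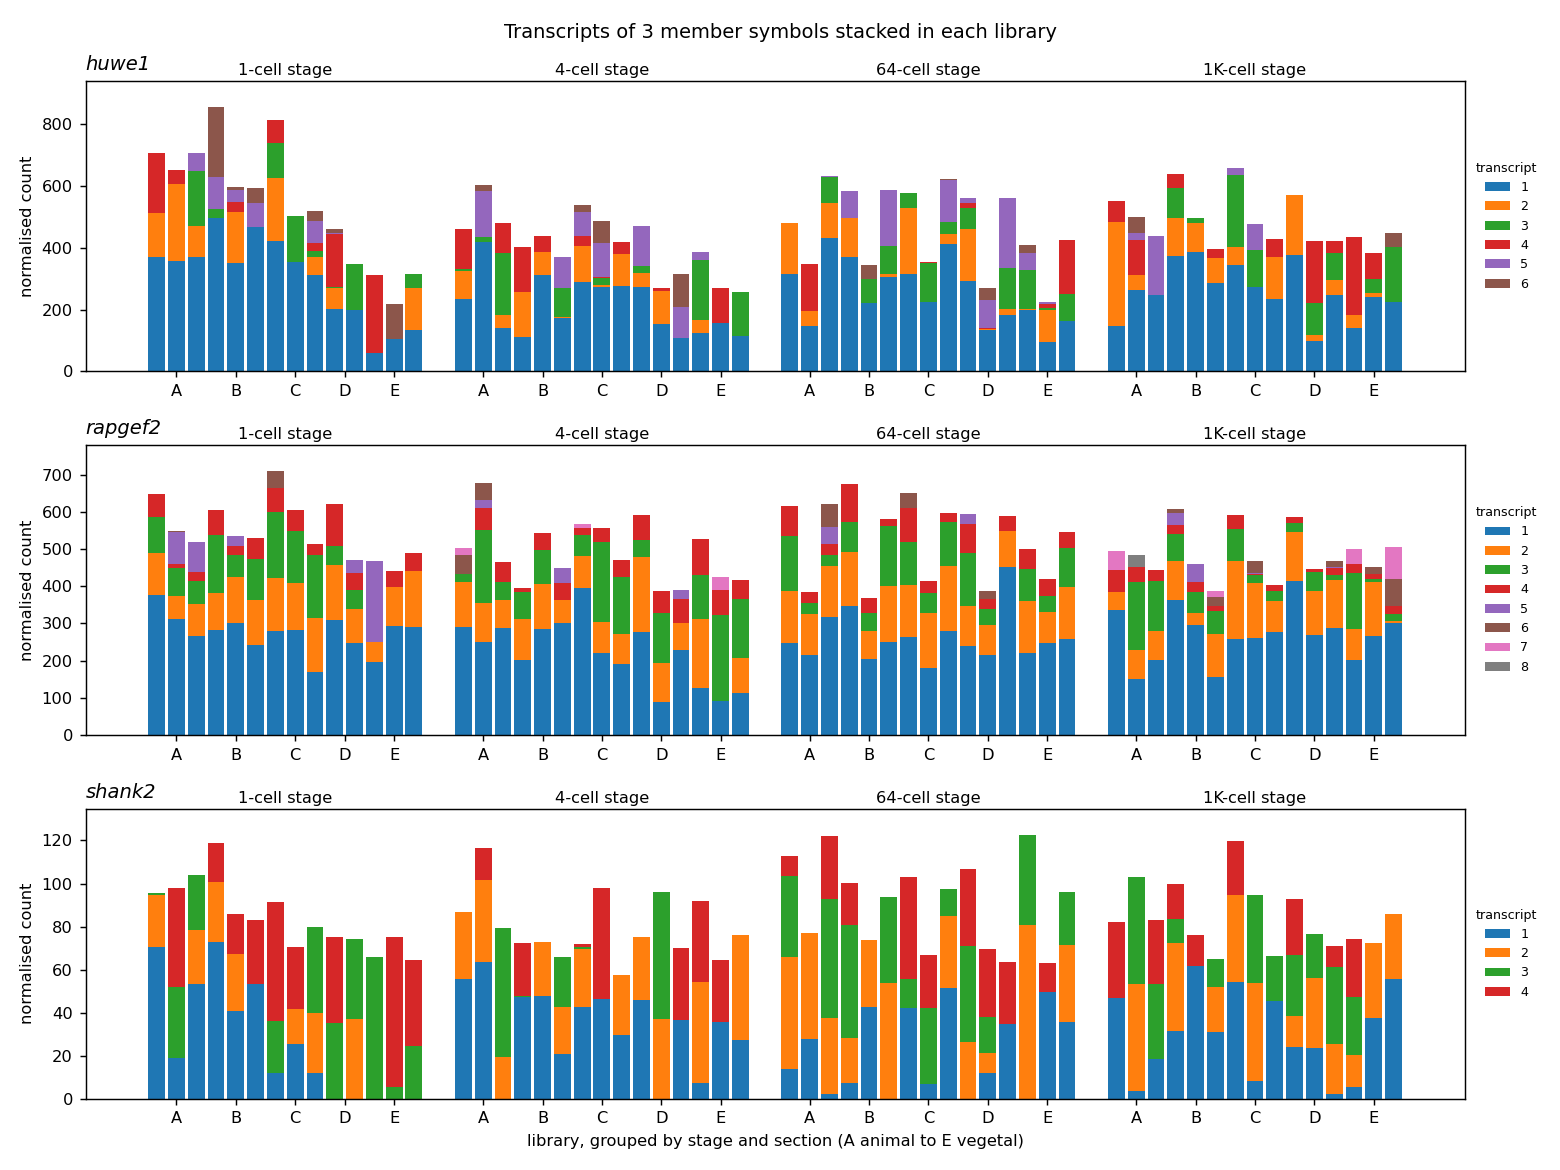
Normalised counts of the transcripts of *huwe1*, *rapgef2* and *shank2* stacked in each of the 59 libraries, ordered by stage, section and replicate; bar height is the sum of the symbol. Neighbouring replicates often differ in which transcripts they show while the heights stay closer, as for *shank2*, whose sums in section E at the 1-cell stage were 65.9, 75.3 and 64.6.

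*Shank2* transcript 1 and *rapgef2* transcript 3, at 0 in section E at the 1-cell stage, were left out of the ranking. Their figures of 57.0- and 45.7-fold given above rest on a set count in place of 0, and that of *rapgef2* compares with section E alone. The sums of both symbols were called at no stage. Among the other transcripts described, the gradients at the 1-cell stage ranked from *sri* transcript 2 (2.41) and *vps13c* (2.03), which overlapped within their errors, then *huwe1* transcript 1 (1.46), to *gldc* (0.61), *aass* (0.28), *rapgef2* transcript 1 (0.16) and *sri* transcript 1 (0.12). The last 3 did not differ beyond their errors. At the 1K-cell stage *sri* transcript 2 (0.66), *vps13c* (0.58), *gldc* (0.48), *aass* (0.45), *huwe1* transcript 1 (0.33) and *sri* transcript 1 (0.13) came in this order, with errors that overlapped between neighbours, and *rapgef2* transcript 1 (-0.26) lay below them. No test of the spread between these RNAs was run.

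As a group, the 23 transcripts gave few calls for a difference between stages. None had a profile over the 5 sections that differed between stages in edgeR's test (3 at an unadjusted p under 0.05), where 0.837% of all transcripts did, while DESeq2 and the fit with the embryo as a term called *vps13c* (adjusted p = 0.00651 with that term), and edgeR called it without 1-cell replicate 3. For the animal excess, edgeR called 0 between the 4- and 1-cell stages, where it called 0.208% of all transcripts positive and 0.0415% negative. At an unadjusted p under 0.05 there were 8 members. For none of these tests was the share of all transcripts at that unadjusted threshold counted, so the unadjusted counts cannot be judged against it. DESeq2 called *vps13c* and *shank2* transcript 1 between the 4- and 1-cell stages. Between the 64- and 4-cell stages and between the 1K- and 64-cell stages both tools called 0 members (1 at an unadjusted p under 0.05 in edgeR each time), and edgeR called 0.00346% and 0% of all transcripts. Between the 1K- and 1-cell stages edgeR called *vps13c* alone and DESeq2 called 4, *sri* transcript 2, *shank2* transcript 1 and *huwe1* transcript 3 besides it. The value for *huwe1* transcript 3 (-11.51) belongs to a transcript at 0 in 21 of the 59 libraries. Its section A levels at the 1-cell stage ran from 0 to 178.9 (SD 103). All contrasts with the 1-cell stage share the same 14 libraries.

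**Figure D5:**
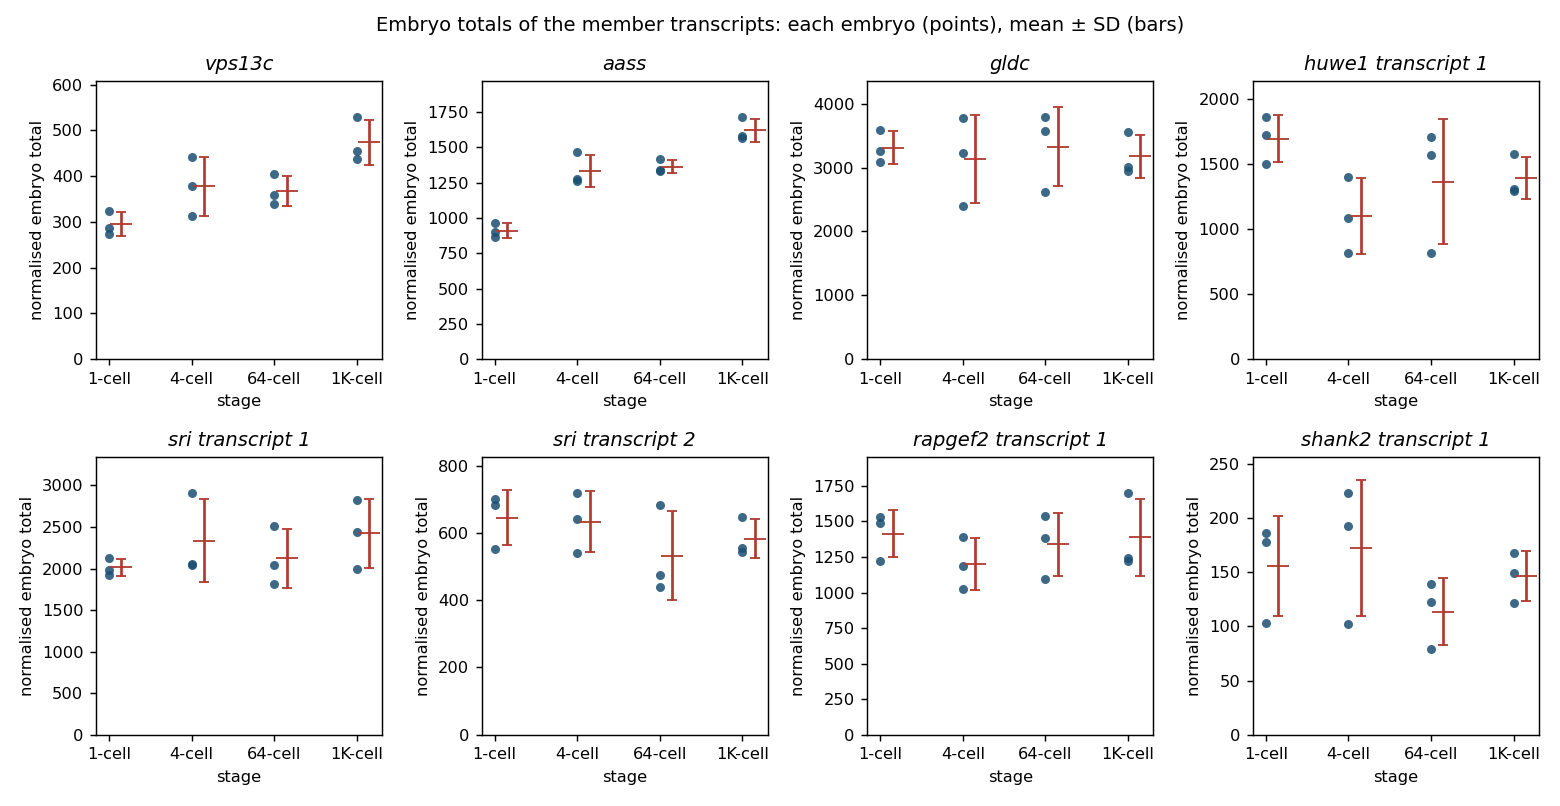
Normalised embryo totals (y axis, from 0) of 8 member transcripts at the 4 stages; points are embryos and red bars mean ± SD (n = 3). *Aass* totals of 862 to 965 at the 1-cell stage lie below all later ones and *vps13c* reaches 437 to 528 at the 1K-cell stage, while the other panels overlap between these stages.

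The other genes of the same families were counted from lists of family members, taking the most abundant transcript per symbol. At the 4 stages 1.34, 0.169, 0.405 and 0.342% of all transcripts were called animal and 5.59, 2.08, 3.3 and 3.2% vegetal. A list of this size without a call therefore says little about its family. Of 23 other HECT ligases measured, 2 were called animal at the 1-cell stage, *trip12* (0.31 ± 0.05, a ligase of ubiquitin fusion substrates) and *smurf1* (0.26 ± 0.06, which targets SMAD proteins), and none at later stages; none was called vegetal. Their excesses were smaller than those of *huwe1* transcript 1 (1.46) and of the *huwe1* sum (1.04). Since *huwe1* was picked as animal from these sections, that difference may follow from the choice. Of 12 other enzymes of lysine breakdown, *dlst*, a subunit of the 2-oxo acid dehydrogenase complexes, was called animal at the 1-cell (0.58 ± 0.09) and 1K-cell stages (0.50 ± 0.06), and *aldh7a1*, which acts downstream of *aass*, at the 64-cell stage (0.53 ± 0.07). Between the 1K-cell and the 1-cell stage the totals of 2 of the 12, *aadat* (-1.32 ± 0.19) and *dhtkd1* (-0.88 ± 0.17), fell and 0 were called higher, against 6.33% lower and 10.2% higher over all transcripts.

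Among 16 other genes of glycine cleavage and folate metabolism, none was called animal. *Amt*, the aminomethyltransferase that works in the same complex as *gldc*, was called vegetal at all 4 stages, with an animal excess of -2.35 ± 0.09, -1.23 ± 0.11, -1.40 ± 0.11 and -1.07 ± 0.06. The animal excess of these partner subunits thus had opposite signs at every stage. That of *gldc*, picked as animal, was small (0.48 to 0.79), and its RNA was present in all sections. The excess of *amt* itself differed by 1.26 ± 0.16 between the 1K-cell and the 1-cell stage (edgeR adjusted p = 1.42e-06). Of 9 other bridge-like lipid transfer genes, the *vps13c* relative *vps13a* was called animal at the 64-cell stage (0.51 ± 0.07). None had a stage difference in its excess that passed the test. Between the 1K-cell and the 1-cell stage 0.536% of all transcripts passed with a positive and 0.1% with a negative difference.

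Of 14 other penta-EF-hand and calcium release genes none was called animal and *capn5*, a calpain protease, was called vegetal at the 1-cell (-1.20 ± 0.10), 64-cell (-0.69 ± 0.09) and 1K-cell stages (-0.71 ± 0.06). The calcium pump *atp2a3* was called vegetal at the 1-cell (-0.57 ± 0.10) and 1K-cell stages (-0.95 ± 0.12). Of 10 partners of SHANK scaffolds none was called animal or vegetal. Their 1K-cell totals were called higher than the 1-cell totals for 2, among them *dlg1* (0.66 ± 0.12), against 10.2% of all transcripts. Totals were called lower for 2, *dlgap1* (-7.05 ± 1.09) and *cttn* (-0.77 ± 0.14), an actin-binding protein, against 6.33% of all transcripts. The level of *cttn* in section A was also lower (-0.94 ± 0.16). Of 15 other genes of the RAP GTPase cycle, the GTPase *rap2a* was called animal at the 1-cell (0.49 ± 0.09) and 64-cell stages (0.30 ± 0.05). In contrast, *afdn*, a RAP effector at cell junctions, was called vegetal at the same stages (-2.18 ± 0.22 and -1.74 ± 0.22) and *rapgefl1*, a relative of *rapgef2*, at the 1-cell stage (-3.23 ± 0.32).

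The transcripts whose levels over the 59 libraries were most like those of each member were ranked by Pearson's r on log2 levels among 12766 transcripts with a symbol. The libraries share embryos and depth, so r is a description only. *Aass* was closest to *nol8* (0.894), *fis1* (0.883) and *acaa1* (0.867), and *gldc* to *prmt5* (0.882), *dnah9* (0.877) and *orc1* (0.875). *Vps13c* was closest to *efhd2* (0.880), *znf292* (0.877) and *znf654* (0.869), *huwe1* transcript 1 to *mtmr3* (0.815), *dnah9* (0.802) and *tdrd6* (0.794), and *sri* transcript 1 to *skp1* (0.913), *slbp* (0.908) and *cep57l1* (0.907). For *rapgef2* and *shank2* the closest were *dcaf1* (0.615) and *usp21* (0.545). Among the members themselves, *aass* and *vps13c* were most alike (0.77), followed by *gldc* and *huwe1* (0.73).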

How the data were processed

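Estimated counts per transcript were deposited for 59 libraries; the authors trimmed reads with Trimmomatic, removed ribosomal and mitochondrial reads, counted with kallisto (version 0.43.1) against an axolotl transcriptome and kept transcripts above 30 counts in some library. All 28909 rows were whole numbers. Embryo totals were summed here from the sections; the deposited totals were not used here. Human symbols are the authors' own. The normalised counts were not used here. Transcript numbers follow the mean level within a symbol.

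Here, counts were tested with edgeR 4.0.16 (limma 3.58.1, R 4.3.3; quasi-likelihood, median-of-ratios factors, Benjamini-Hochberg over all 28909 transcripts): sections within a stage with the embryo as a term, differences between stages over all libraries, totals and sections A and E over embryos. The threshold was 0.01, and a call also needed a mean total over 20 at 1 stage or more. Scripts were checked on simulated counts. Alternatives were DESeq2 1.42.0, TMM, filterByExpr, the replicate as a block, other poles and totals, and leaving out embryos. Library pairs of the same group differed beyond counting noise. Numbers shared between stages were not taken to pair embryos. Named genes were all members, the transcript with the highest mean count of each in full, up to 3 called genes per list and stage, and the 3 transcripts most like each main member transcript; *sri* transcript 2, *huwe1* transcript 3, *shank2* transcripts 3 and 4 and *rapgef2* transcript 3 were added after their values were seen. The members and lists were chosen with earlier results of these data known. Within a stage, the tests set the differences between sections against how far these vary between embryos. For totals and single sections they set the differences between stages against the spread between embryos. The main fits for stage differences in profile and excess had no embryo term and treated the sections of an embryo as independent libraries. No p-value accounts for parents. The section D library labelled an outlier was not analysed here.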

Additional observations from a re-analysis of the deposited data

Results flagged for a closer look

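The animal excess of *vps13c* differed between the 1K-cell and the 1-cell stage by -1.47 (log2). It was the only member transcript for which the difference between these stages itself passed edgeR's quasi-likelihood test (adjusted p = 0.000296). The excess was smaller in each of the 3 embryos of the 1K-cell stage (0.73, 0.73 and 0.29 from the section levels) than in the 2 embryos of the 1-cell stage with all sections (2.16 and 2.52). The 1-cell embryo without section D, replicate 3, was less steep, with 66.2 in section A and 24.4 in section E. In the same order the other 2 had 59.4 and 7.91, and 72.9 and 7.17. The 1-cell gradient of *vps13c* was among the values known when the genes were chosen, so the comparison may not be independent of the choice.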

How the results depend on the processing

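TMM scaling and filterByExpr left every count of called members within 1.5 times the main one. Section A minus section E did so for the differences in excess between stages. Within a stage that setting kept edgeR's test over all sections. The adjusted p was therefore the main one (0.00512 for *vps13c* in 1-cell embryos), and only the sign of the excess could alter a call. Its counts of members called animal are thus no check on the main ones. DESeq2 called 4 members animal in 64-cell embryos and 3 in 1K-cell embryos, and the fits without the embryo term (no replicate block) called 1, 0 and 0 in 4-, 64- and 1K-cell embryos. For the profile over stages DESeq2 called 1 and the replicate block 1. For the 4-cell minus 1-cell excess DESeq2 called 2 and the replicate block 1, and for the 1K-cell minus 1-cell excess DESeq2 called 4. DESeq2 called 3 members for the embryo total over stages, 2 for section A and 4 for section E. For the 1K-cell minus 1-cell total the replicate block called 1 and sums over sections A, B, C and E called 1, and for section E the replicate block called 0. The cause of these differences was not tested.

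Leaving out 1 embryo, the members called animal numbered 0 to 1 in 1-cell and in 64-cell embryos and 0 in 4-cell and in 1K-cell embryos. In such fits 0 to 1 were called for the profile, for the 4-cell minus 1-cell and 1K-cell minus 1-cell excess and for section E, and 1 to 2 for the 1K-cell minus 1-cell total. Fewer embryos enter these fits. Over all transcripts DESeq2 called 4707, 2280, 2867 and 2679 in the 4 stages (edgeR 2003, 651, 1070 and 1025), 589 for the profile (242), 217 and 506 for the excess of the 4- and 1K-cell against the 1-cell stage (72 and 184), 6811 for totals over stages (4540), 3165 for section A (1186) and 4102 for section E (1654). The embryo term changed the profile to 383, and the excess to 161 and 425; without it 710 were called at the 64-cell stage. Embryos that share a replicate number in different stages deviated together weakly or not at all (r from -0.156 to 0.136, 3 of 18 pairs over 0.1). For totals and single sections the main fits therefore did not use the number as a pair, and that block called 547 in section A. Pairs of unlike number were not compared, and whether embryos of the same number share parents was not tested. Section E at the 1-cell stage was the shallowest (median 2562328 counts), which limits low levels there.

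No called result turned its direction, but log2 values that were not called did. They passed the threshold in no alternative, and the cause was not tested. Sums over all transcripts of a symbol were set against single transcripts. The transcript that differed from the sum in sign is given in brackets. The animal excess of the sum was 0.08 for *rapgef2* at 64 cells (transcript 1) and 0.13 and -0.05 at 4 and 1K cells (transcript 3). For *shank2* it was 0.16 at 64 cells (transcript 1). The 4-cell minus 1-cell excess of the sum was -0.02 for *rapgef2* (transcript 1) and 0.00 for *sri* (transcript 2). The 64-cell minus 4-cell excess of the sum was -0.18 for *huwe1* (transcript 1), -0.04 for *rapgef2* (transcript 3), 0.12 for *shank2* (transcript 1) and -0.01 for *sri* (transcript 1). The 1K-cell minus 64-cell excess of the sum was -0.14 for *rapgef2* (transcript 3), -0.05 for *shank2* (transcript 1) and -0.29 for *sri* (transcript 2). The 1K-cell minus 1-cell excess of the sum was -0.31 for *sri* (transcript 1). The 1K-cell minus 1-cell level of the sum in section A was -0.28 for *rapgef2* (transcript 3) and 0.13 for *sri* (transcript 2). The total of the *sri* sum was 0.18 (transcript 2). With section A minus section E, the excess was 0.08 for *rapgef2* transcript 1 and -0.41 for transcript 3 at 64 cells and -0.79 for *shank2* transcript 1 at 1K cells, and stage differences were -0.04 for *huwe1* transcript 1 (64-cell minus 4-cell) and -0.03 for *sri* transcript 1 (1K-cell minus 1-cell), which was -0.04 with TMM. Sums of normalised counts without 1-cell replicate 3 gave totals of 0.34 for *shank2* transcript 1 and 0.07 for *sri* transcript 2.

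Leaving out 1 embryo, the excess ranged from -0.21 to 1.31, -1.19 to 1.40 and -0.20 to 0.64 for *shank2* transcript 1 at 4, 64 and 1K cells, and at 64 cells from -0.23 to 0.10 for *rapgef2* transcript 1 and from -0.02 to 0.38 for transcript 3. The 64-cell minus 4-cell excess ranged from -0.03 to 0.27 for *aass*, -0.20 to 0.66 for *huwe1* transcript 1, -2.27 to 0.23 for *shank2* transcript 1, -0.19 to 0.40 for *sri* transcript 1 and -0.26 to 0.05 for *vps13c*. The 1K-cell minus 64-cell excess ranged from -0.47 to 0.02 for *rapgef2* transcript 1, -0.48 to 2.01 for *shank2* transcript 1 and -0.06 to 0.49 for *sri* transcript 2. Against the 1-cell stage, 1K-cell embryos ranged from -0.07 to 0.13 in the excess of *sri* transcript 1, from -0.20 to 0.06 and -0.32 to 0.06 in the totals of *rapgef2* transcript 1 and *shank2* transcript 1, from -0.15 to 0.18 in section E of *rapgef2* transcript 1 and from -0.23 to 1.00 in section A of *rapgef2* transcript 3.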
